A study of Mus musculus with 28 samples.

Results

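Of the topologically associating domains (TADs) called in C2C12 cells, 638 had the same chromosome, start and end in growth medium and after 60 h in differentiation medium, on a map of 40 kb bins. They made up 26.4% of the 2416 TADs listed for growth medium and 26.9% of the 2368 listed for 60 h, and covered 615 Mb. They were chosen by the deposited positions of their edges in both lists, so that unmoved edges define the set and were not tested. A TAD is a stretch of chromosome whose DNA contacts itself more often than it contacts the neighbouring stretches, and its edges often hold bound CTCF and cohesin, the ring complex that extrudes DNA loops. Enhancers and the promoters they act on lie mostly within one TAD. On differentiation, myoblasts stop dividing and join into myotubes with many nuclei, driven by the MyoD family of E-box-binding factors, and some of the genes involved, such as the skeletal myosins and the replication histones, lie in clusters.

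C2C12 is an established line of mouse myoblasts, labelled wild type, kept in 20% fetal bovine serum while it proliferates (growth medium) and moved to 3% horse serum to differentiate (differentiation medium). RNA was sequenced in 3 libraries each from growth medium and from 12, 24, 48, 60 and 96 h of differentiation. ATAC-seq, which maps open chromatin, was done on 2 libraries and Hi-C, which maps DNA contacts after MboI digestion, on 3 libraries each of growth medium and 60 h. One TAD list, one boundary list and one ATAC peak list were deposited for each of these 2 conditions, with 1 loop table for both, so that values from them have no replicate check. The labels call the RNA libraries biological replicates without describing separate cultures, and the p-values measure the spread between these libraries, which may be technical.

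Totals were 24154680 to 36405121 counts in the 18 RNA libraries. Replicate 3 of 24 h was the farthest from the others of its group, by a mean difference of 0.134 on the log2 scale against 0.0874 to 0.127 for the other 17. The labelled cell type carried its markers: Myod1 averaged 47.0 CPM (counts scaled to the TMM-adjusted library total) in growth medium and 75.8 at 60 h, and Myog 13.4 and 388. Markers of adipocytes, epithelium and endothelium summed to at most 0.085, 0.297 and 1.72 CPM in any library. The 2 leukocyte markers summed to at most 2.26, nearly all from Cd68, which averaged 2.25 CPM in growth medium and 0.779 at 60 h, while Ptprc was at most 0.0953. The smooth muscle list summed to 492 to 497 CPM in growth medium and 1450 to 1530 at 60 h, almost all from Acta2 and Tagln. Its marker Cnn1 averaged 1.78 and then 0.594 CPM, and Myh11 was at or under 0.132 in every library. In bulk RNA, fewer cells of a type and less RNA per cell cannot be told apart.

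The promoters of 9 genes show the sequence at 2 kinds of changed gene inside TADs that kept both edges. For the sarcomere genes Tnnc1, Myh4, Myh8 and Unc45b and the noncoding RNA Nctc1, which rose, an ATAC peak covered the start in the 60 h list and no peak of the growth medium list overlapped it. Each line gives the 150 bases before the start, 5′ to 3′ on the gene's strand, from RefSeq on GRCm38.p6, whose coordinates are those of mm10. Capitals mark E-boxes, CANNTG, the general form of sites that MyoD family factors, among others, bind. This form reads the same on both strands. Which factors bind the boxes marked here was not tested.
Tnnc1: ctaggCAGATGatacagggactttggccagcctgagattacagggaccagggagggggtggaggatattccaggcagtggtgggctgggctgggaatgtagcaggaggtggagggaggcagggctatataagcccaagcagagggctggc
Myh4: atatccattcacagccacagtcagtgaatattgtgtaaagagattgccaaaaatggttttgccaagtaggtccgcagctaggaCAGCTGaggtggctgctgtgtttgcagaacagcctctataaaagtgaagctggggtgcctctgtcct
Myh8: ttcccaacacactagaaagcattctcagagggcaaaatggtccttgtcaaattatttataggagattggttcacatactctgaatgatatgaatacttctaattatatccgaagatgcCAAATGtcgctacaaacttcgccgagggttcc
Unc45b: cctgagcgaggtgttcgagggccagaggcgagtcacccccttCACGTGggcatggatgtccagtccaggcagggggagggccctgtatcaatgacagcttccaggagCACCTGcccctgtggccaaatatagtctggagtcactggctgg
Nctc1: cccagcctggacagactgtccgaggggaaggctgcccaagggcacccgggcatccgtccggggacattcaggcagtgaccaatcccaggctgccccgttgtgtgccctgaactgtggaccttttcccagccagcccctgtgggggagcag
These windows are chr14:31208162-31208311, chr11:67237662-67237811, chr11:67276974-67277123 and chr11:82911103-82911252 on the plus strand and chr7:142558599-142558748 on the minus strand. The E-box lay 145 bases before the start of Tnnc1 (CAGATG), 67 before Myh4 (CAGCTG) and 32 before Myh8 (CAAATG), and Unc45b had 2, at 108 (CACGTG) and 43 bases (CACCTG), while the window of Nctc1 held none. The authors' fold enrichment of the 60 h peak was 1.94 at Tnnc1, 2.14 at Myh4, 2.35 at Myh8, 3.32 at Unc45b and 3.94 at Nctc1. The median was 2.59 over all peaks of the 60 h list and 2.88 over those of growth medium, so Tnnc1, Myh4 and Myh8 had weak peaks. Whether growth medium held signal at these starts too weak to be listed was not tested. An E-box was present in 47.7% of the 32851 promoters of the same length in the table and in 44.6% of the 6053 in identical TADs, so that its presence here is a description and no sign of binding.

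For Hist1h2ae, Hist1h2bh, Hist1h2ab and Hist1h3d, which were among the 10 largest falls in identical TADs of genes whose mean log2 CPM reached 3, peaks covered the start in both lists. Capitals mark the CCAAT box, CCAAT or its reverse complement ATTGG, the site of NF-Y, counted on both strands. Motifs may share bases with one another and each was counted on its own.
Hist1h2ae: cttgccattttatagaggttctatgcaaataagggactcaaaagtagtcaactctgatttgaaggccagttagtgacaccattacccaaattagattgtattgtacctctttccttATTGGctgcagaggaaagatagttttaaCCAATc
Hist1h2bh: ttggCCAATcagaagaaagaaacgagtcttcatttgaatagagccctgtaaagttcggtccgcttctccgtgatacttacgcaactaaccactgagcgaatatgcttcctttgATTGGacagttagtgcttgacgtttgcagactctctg
Hist1h2ab: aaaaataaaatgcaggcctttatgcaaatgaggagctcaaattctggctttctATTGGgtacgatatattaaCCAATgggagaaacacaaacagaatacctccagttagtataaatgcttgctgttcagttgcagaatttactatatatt
Hist1h3d: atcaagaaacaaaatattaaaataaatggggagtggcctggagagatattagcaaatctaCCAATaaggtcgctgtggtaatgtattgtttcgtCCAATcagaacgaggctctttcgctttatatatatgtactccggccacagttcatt
The windows are chr13:23571221-23571370 and chr13:23543445-23543594 on the minus strand and chr13:23750938-23751087 and chr13:23575613-23575762 on the plus strand. Each held 2 CCAAT boxes, at 34 and 6 bases before the start of Hist1h2ae, 146 and 37 before Hist1h2bh, 97 and 78 before Hist1h2ab and 90 and 56 before Hist1h3d. These 4 were chosen with their values known: Hist1h1a and Hist1h3g, also among the 10 largest falls, held 1 box each and are not printed, and Hist1h3f is named only. Over all 32851 promoters 24.5% held at least 1 in this window, and 25.2% of those in identical TADs. The authors' fold enrichment of the peak at the start was 3.09 in growth medium and 4.16 at 60 h for Hist1h2ae, 4.48 and 6.32 for Hist1h2bh, 3.84 and 3.14 for Hist1h2ab, and 2.69 and 2.65 for Hist1h3d.

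Identical TADs spanned 40 to 2440 kb, with a median of 880 kb and quartiles of 720 and 1160 kb. The other TADs had medians of 920 kb in growth medium and 960 kb at 60 h. Just outside the rule stood 746 TADs with one edge kept and the other moved by a single 40 kb bin (30.9% of the growth medium list, 240 to 2560 kb there) and 254 with both edges moved by 1 bin (10.5%). A further 349 TADs of growth medium kept 1 edge while the other moved further or was absent, 19 kept both edges but were split or merged, and 410 kept none.

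The 638 TADs lay mostly side by side. In runs of 2 or more neighbours were 488 of them, or 76.5%, where only the 40 kb bin of a common boundary parts 2 neighbours, so that both depend on its position. The longest run held 11 TADs over chr15:74680001-87440000, which include the TADs of the myoglobin gene Mb and of the DNA helicase gene Recql4. The next longest were 2 runs of 9 TADs. Autosomes had between 20.2% (chromosome 14) and 33.1% (chromosome 4, 44 of 133) of their growth medium TADs identical. On the X chromosome the share was 11.7%, or 16 of 137.

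TADs with few ATAC peaks were the least often identical. The growth medium TADs were ranked by peaks per Mb and cut into 4 groups of 604. In the group with the fewest peaks (up to 22.1 per Mb) 66 were identical, or 10.9%, against 27.3%, 35.8% and 31.6% in the groups above it. By tested genes per Mb the shares were 14.6%, 29.0%, 29.3% and 32.8%. By length they were 24.5%, 30.1%, 26.8% and 24.2%, a narrower range. The 60 h list gave 11.5%, 27.5%, 36.0% and 32.8% by peaks and 25.3%, 32.1%, 28.7% and 21.6% by length. In both lists the low share lay in the group with the fewest peaks and in that with the fewest genes, while by length the 60 h list had its lowest share among the longest TADs.

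**Figure D1:**
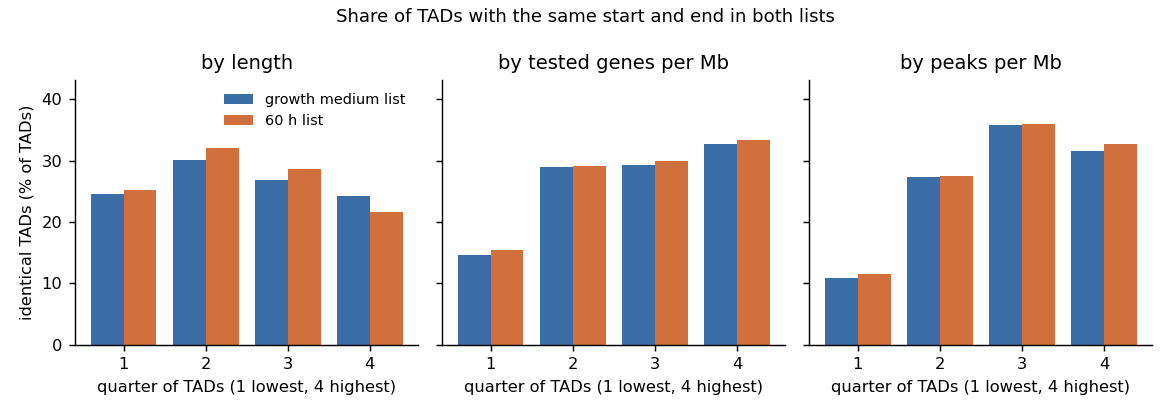
Percent of TADs that were identical in both conditions, by length, tested genes per Mb and ATAC peaks per Mb, each cut into 4 equal groups from lowest to highest, for the growth medium and the 60 h list; bars start at 0. The lowest bars are the group with the fewest peaks, 10.9% and 11.5%, and that with the fewest genes, 14.6% and 15.4%.

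Identical TADs held more ATAC peaks per length than the other TADs. They contained 54422 growth medium peaks, or 88.5 per Mb, against 66.6 per Mb in the other TADs, and 56984 peaks of the 60 h list, or 92.7 per Mb against 69.3. A typical identical TAD had 92.6 growth medium peaks per Mb (quartiles 51.7 and 129) and a typical other TAD 60.3 (15.4 and 116), so that the ranges overlapped widely. The order held within each of the 4 length groups, with 103 against 78.3 peaks per Mb among the shortest TADs and 76.5 against 58.7 among the longest. It also held on the autosomes alone, 89.6 against 69.8. Within groups of gene density the gap narrowed with rising density: 30.9 against 15.5 peaks per Mb in TADs with the fewest tested genes, then 65.1 against 46.1 and 98.5 against 89.7, and 135 in both where genes were most dense. With 1 peak list per condition these are values without a test.

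The shares of their peaks that were listed in a single condition were close to those elsewhere. No peak of the 60 h list overlapped 10523 of the growth medium peaks in identical TADs, or 19.3% (95% exact binomial interval 19% to 19.7%, counting error only), against 19.8% in the other TADs and 19.6% of all 181549 peaks. In the 60 h list 13228 peaks had no overlapping growth medium peak, or 23.2% (22.9% to 23.6%), against 23.5% in the other TADs and 23.3% of all 189444. Peaks were more numerous at 60 h in 369 identical TADs (57.8%), fewer in 243 (38.1%) and equal in 26. Counts per TAD ran from 0 to 355 in growth medium and from 0 to 368 at 60 h.

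The higher peak density reached to the edges and past them. In growth medium the first 40 kb inside the edge held 3.87 peaks on average in identical TADs and 2.98 in the others, and the first 40 kb outside held 3.85 and 2.97. Further in, the bin that begins 280 kb from the edge held 3.66 and 2.76. Densities therefore fell by little from edge to interior in either group, and the gap between the groups was present at each distance plotted. Many of the outside bins belong to neighbouring identical TADs.

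**Figure D2:**
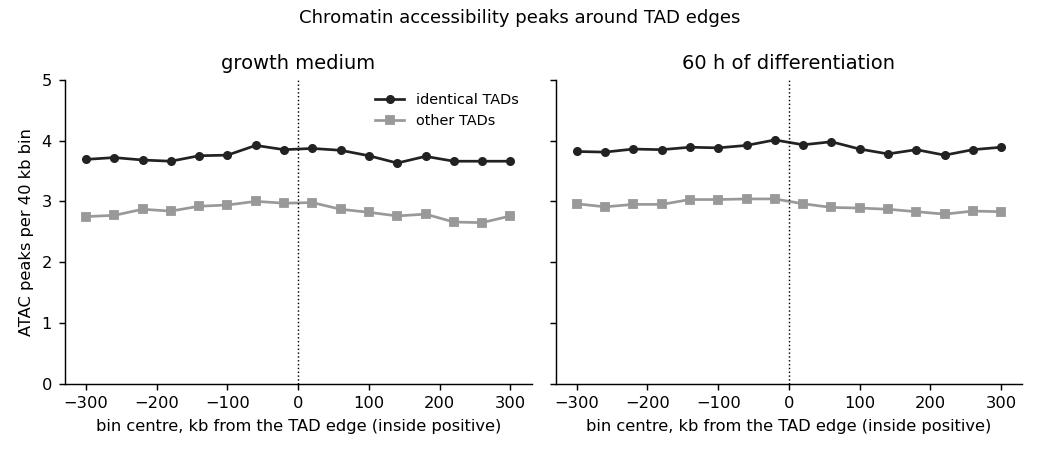
ATAC peaks per 40 kb bin against the distance from a TAD edge in kb (negative outside, positive inside), for identical and other TADs, in growth medium and at 60 h. Inside bins come only from TADs of at least 640 kb, and the line of identical TADs stands above that of the other TADs throughout, at 3.87 against 2.98 peaks in the first inside bin of growth medium.

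The authors' boundary score, a strength whose scale no source used here gives, came from the same Hi-C maps as the rule and is given as a description. In growth medium the boundaries at edges of identical TADs had a median score of 1.04 (948 boundaries, quartiles 0.693 and 1.4). The 282 boundaries that were kept but bordered no identical TAD had a median of 0.951, and the 1237 found in growth medium only 0.544. Kept means listed in the same 40 kb bin, so a boundary that moved by 1 bin counts as found in 1 list only. At 60 h the medians were 1.15, 1.06 and 0.618. Kept boundaries were thus close at the median whether or not an identical TAD lay beside them, and boundaries of 1 list were lower at the median with overlapping quartiles (0.259 to 0.945 in growth medium). A tested gene started within 24.2% of the boundary bins at identical TADs, against 16.0% of the other kept boundaries and 16.1% of those of growth medium only.

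Loops are pairs of 25 kb anchors with more contacts than their surroundings, and the loop table marks each as found in growth medium, at 60 h or in both. Inside identical TADs lay 10545 loops, or 17.2 per Mb and a mean of 16.5 per TAD, against 12.8 per Mb and 12.4 per TAD in the other growth medium TADs. The order held in each length group, from 6.23 against 3.51 loops per TAD in the shortest to 32.1 against 23.6 in the longest. Although the TADs had unmoved edges, most loops inside them were listed in a single condition: 44.4% in growth medium only, 39.6% at 60 h only and 15.9% in both (15.2% to 16.6%). In the other TADs 14.1% were listed in both, and 11.2% of all 63732 loops, which had a median span of 575 kb against 450 kb inside. This share fell with TAD length, and its order did not hold in each length group. From the shortest to the longest it was 23.9% against 22.2%, 20.9% against 17.1%, 15.2% against 15.6% and 12.7% against 11.1%. Of the 12507 loops that left an identical TAD 6.49% were in both, against 6.68% around the other TADs. All of this comes from the maps the rule used and carries no test.

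Loops of both conditions were present in 506 identical TADs (79.3%), and 9 TADs had no loop at all. The number per TAD ran from 0 to 102 with a median of 13. A loop that joined the 2 edges to within 1 bin was listed for 145 of the 638 (22.7%) and for 296 of the 1778 other growth medium TADs (16.6%). The most loops lay in chr10:37000001-39040000, with 102, of which 37 were of growth medium only, 55 of 60 h only and 10 of both. That TAD held 139 peaks in growth medium and 193 at 60 h, and both of its tested genes rose: Marcks, which encodes an actin-binding membrane protein, by 0.75 and 5930403N24Rik by 2.25 (log2). In contrast, all 6 loops of chr17:45520001-46360000, the TAD of the fusion gene Mymx, were listed in both conditions.

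Genes inside identical TADs changed their RNA levels in shares close to those of genes elsewhere, a difference that was not tested. Of the 34559 genes placed on the annotation 8238 lay in an identical TAD (23.8%), and 3766 of these had enough counts to be tested, 27.0% of all placed tested genes. A tested gene was present in 570 of the 638 TADs (89.3%, against 74.7% of the other growth medium TADs), 60 more had placed genes of which none was tested, and 8 had no placed gene. At 60 h 1287 genes were higher than in growth medium and 1290 lower, at an adjusted p under 0.05 in edgeR's quasi-likelihood test with Benjamini-Hochberg adjustment. These are 34.2% and 34.3% of the tested genes inside, beside 33.1% and 32.2% of all 15303 tested. Both directions together made 68.4%, against a background of 65.3% and against 68.7% of the 8150 genes in TADs other than these in both lists. Tested genes that could not be placed, 1347 of them, were called less often, 30.6%, and lower the background.

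Changes of at least 2-fold were called for 360 genes upwards and 321 downwards, 18.1% of the tested genes in identical TADs against 16.6% of all tested (8.95% higher and 7.68% lower) and 16.5% in the other TADs. The median size of the change was 0.407 on the log2 scale inside and 0.399 in the other TADs, and the median signed change was -0.001 and -0.008. The shares inside and outside were thus close in number and direction.

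At the other times the shares called at any size were close as well. At 12 h 694 genes in identical TADs were higher and 712 lower (18.4% and 18.9%, beside 17.8% and 17.2% of all tested), 37.3% in all against 35.0% of all tested genes and 37.2% in the other TADs. At 24 h 1182 were higher and 1253 lower (background 30.2% and 30.6%), 64.7% in all against 60.8% and 61.8%. At 48 h the counts were 1261 and 1339 (background 32.5% and 32.8%), 69.0% in all against 65.4% and 67.0%, and at 96 h 1372 and 1368 (34.8% and 34.1%), 72.8% against 68.8% and 71.5%. The 5 comparisons share the growth medium libraries. Without replicate 3 of 24 h, the library farthest from its group by a small margin, the 24 h counts were 1191 higher and 1175 lower.

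**Figure D3:**
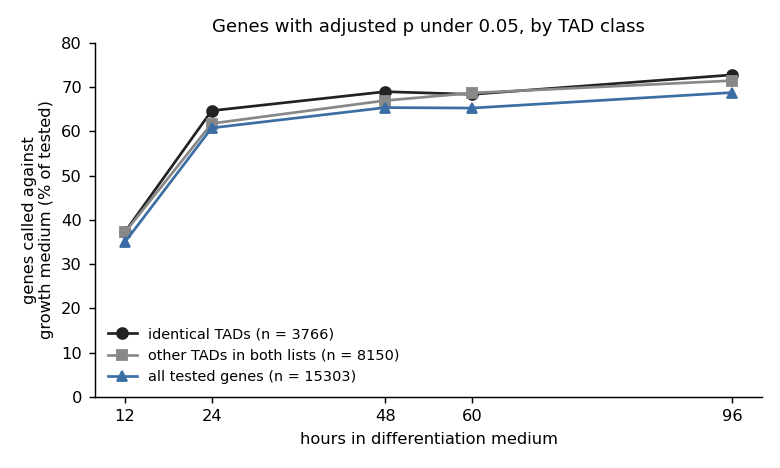
Percent of tested genes called in either direction against hours in differentiation medium, for identical TADs, the other TADs and all tested genes (adjusted p under 0.05, edgeR). The lines run together, from 37.3%, 37.2% and 35.0% at 12 h to 72.8%, 71.5% and 68.8% at 96 h.

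Genes of 1 TAD mostly changed in both directions. Of the 295 identical TADs with at least 5 tested genes, 255 held both higher and lower genes at 60 h, 21 held higher but no lower genes and 19 the reverse. In the other growth medium TADs the counts were 532, 40 and 28 of 600. Adjacent called genes of the same identical TAD changed in the same direction in 884 of 1502 pairs (58.9%), those of the same other TAD in 1828 of 3232 (56.6%), and adjacent genes that lay in different TADs in both lists in 248 of 476 (52.1%). The pairs in different TADs lay farther apart, with a median distance of 587 kb against 44.7 kb. Without the histone and protocadherin clusters the shares were 57.3%, 55.4% and 53.0%.

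The skeletal myosin heavy chain cluster filled one identical TAD, chr11:66960001-67800000. All 5 tested myosin genes there, Myh3, Myh2, Myh1, Myh4 and Myh8, rose at 60 h, while the other 4 tested genes of the TAD, Tmem220, Adprm, Sco1 and Gas7, were not called. Myh3, the embryonic myosin of newly formed fibres, measured 4.63, 4.92 and 5.38 CPM in growth medium and 257, 220 and 280 CPM at 60 h. The groups did not overlap, and the log2 fold change was 5.66 ± 0.09 (SE, n = 3 and 3, adjusted p = 1.1e-21 in edgeR). Myh8, the perinatal myosin, went from 0.111, 0.275 and 0.199 CPM to 12.0, 8.67 and 11.1 (5.69 ± 0.26). Myh1, an adult fast myosin, went from 1.52, 2.05 and 2.29 CPM to 66.8, 58.8 and 65.6 (5.01 ± 0.10). For the adult fast myosins Myh2 and Myh4 growth medium counts were at or near 0, and no fold is given: Myh4 had 0, 0.0611 and 0.0332 CPM there and 3.49, 2.9 and 3.78 at 60 h, with an adjusted p of 4.7e-13 in edgeR. By 96 h Myh3 stood 7.90 above growth medium on the log2 scale.

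The myosin TAD held 94 peaks in growth medium and 104 at 60 h, of which 21 and 33 had no counterpart in the other list, and 19 loops, 9 of growth medium only, 7 of 60 h only and 3 of both. Peaks covered the starts of Myh4 and Myh8 at 60 h only, in the windows printed above. Neighbouring myosin genes share long stretches of coding sequence, and no source used here says how reads that match several copies were divided.

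A TAD of 400 kb, chr7:142360001-142760000, held the fast troponin genes and the imprinted Igf2 and H19. Of its 11 tested genes 10 rose at 60 h, 7 of them at least 2-fold, and Ifitm10 was not called (-0.56, adjusted p = 0.15 in edgeR). Tnni2, the inhibitory subunit of fast troponin, measured 2.15, 2.23 and 1.56 CPM in growth medium and 95.6, 76.4 and 93.6 at 60 h, a log2 fold change of 5.48 ± 0.14. Tnnt3, its tropomyosin-binding subunit, went from 3.93, 3.15 and 3.42 CPM to 183, 152 and 182 (5.63 ± 0.08). H19, a long noncoding RNA, went from 546, 541 and 574 CPM to 4900, 4730 and 5020 (3.14 ± 0.07, adjusted p = 1.9e-19 in edgeR) and did not differ from growth medium at 12 h by the test (-0.00, adjusted p = 0.99). No library of one group overlapped those of the other for these 3 genes at 60 h.

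Igf2, a growth factor of muscle, which the naming rule did not include and which was added after its values were seen, rose from 2.34, 2.17 and 2.59 CPM to 12.3, 12.6 and 13.9 (2.45, adjusted p = 2.2e-14 in edgeR). The noncoding RNA Nctc1 had no count in the 3 growth medium libraries and 0.208, 0.420 and 0.296 CPM at 60 h, and a 60 h only peak of 3.94-fold enrichment covered its start. Syt8 and Ins2 were also called higher, from at most 0.0665 CPM in any growth medium library to between 0.344 and 0.831 at 60 h. Peaks were more numerous at 60 h: 52 in growth medium and 71 at 60 h, with 23 of the latter, or 57.5 per Mb, of 60 h only and 4 of the former of growth medium only. Its 2 loops were 1 of growth medium only and 1 of both. The adjoining identical TAD, chr7:142800001-143680000, holds the cell cycle inhibitor gene Cdkn1c, which went from 0.741, 0.978 and 0.565 CPM to 1.66, 2.29 and 2.69 (1.54 ± 0.28, adjusted p = 4.7e-05 in edgeR), and there 7 of 10 tested genes rose and 1 fell.

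Other muscle genes rose from within identical TADs whose remaining genes were mixed. Tnnc1, the calcium-binding troponin of slow and cardiac muscle, in chr14:30760001-32280000, went from 5.89, 6.48 and 6.05 CPM to 352, 290 and 362 (5.76 ± 0.09, adjusted p = 8.2e-22 in edgeR). In that TAD 13 of 28 tested genes rose and 6 fell. Mymx, listed under its older symbol Gm7325 and encoding the small membrane protein that drives myoblast fusion, went from 0.334, 0.428 and 0.499 CPM to 34.3, 30.0 and 38.0 (6.32 ± 0.13), while 12 of the 20 tested genes around it fell and 5, itself included, rose. Mb, the oxygen-binding protein of muscle, in chr15:76760001-77400000, went from 0.371, 0.703 and 0.931 CPM to 20.4, 19.4 and 22.0 (4.92), and its TAD had 59.4 peaks per Mb of 60 h only, the most of any identical TAD with at least 10 peaks. For each of these 3 genes all libraries at 60 h were above all libraries in growth medium.

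Of the 47 tested genes of the sarcomere list 17 lay in identical TADs (36.2%, against 27.0% of all placed tested genes). All 17 rose at 60 h, with a median log2 fold change of 5.48, beside 28 of 30 elsewhere and a median of 4.14. Over all tested genes 33.1% rose, and the median was 0.007. Unc45b, the myosin chaperone, rose by 6.38 ± 0.19 (log2), Myl4, a light chain, by 5.73 ± 0.12, and Tnni1, the slow troponin inhibitor, by 4.98 ± 0.09. All 4 tested calcium handling genes inside rose (14 of 16 elsewhere, with 2 lower), among them Hrc, a calcium-binding protein of the sarcoplasmic reticulum, by 5.53 ± 0.12. Jph2, which holds the reticulum against the outer membrane, rose by 1.13 ± 0.06 and had been lower at 12 h by 0.48. These lists were assembled with results of the same libraries known.

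Of the 25 genes on a panel of myogenic and cell cycle regulators, 6 lay in identical TADs: Myh3, Myh8, Mymx and Cdkn1c rose, Id1 fell and Pax7 was not called. Id1, which binds and blocks E-box factors, measured 79.0, 66.0 and 73.5 CPM in growth medium and 18.4, 22.0 and 16.8 at 60 h (-1.93 ± 0.09, adjusted p = 1.7e-14 in edgeR). Pax7, a factor of muscle stem cells, measured 6.49, 5.62 and 6.95 CPM and 6.65, 5.81 and 6.54, overlapping groups (-0.00 ± 0.10, adjusted p = 0.99 in edgeR). The remaining 19, Myod1 and Myog among them, lay in other TADs, at edges or across them.

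**Figure D4:**
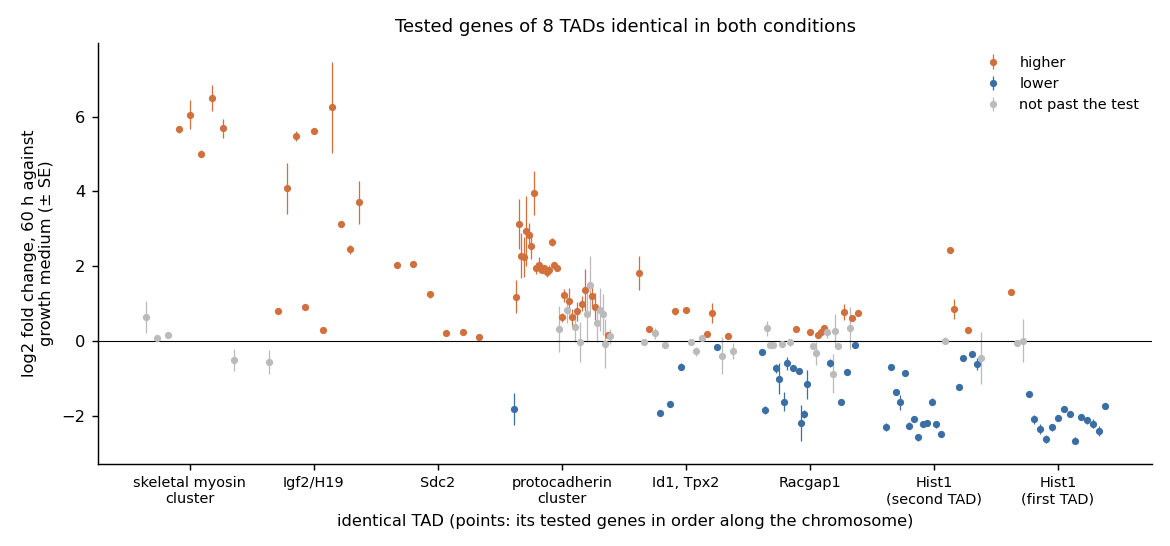
Log2 fold change at 60 h against growth medium, with its SE, of each tested gene in 8 named identical TADs, in order along the chromosome; orange points were called higher, blue lower and grey not called. The 5 myosin genes stand above 5.0, 10 of 11 genes of the Igf2 and H19 TAD are orange, and the points of both histone TADs are mostly blue. Myh2, Myh4 and Nctc1, with growth medium counts at or near 0, stand at fitted values that depend on the prior count and are no measured fold.

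The largest group of falling genes sat in 2 adjoining identical TADs on chromosome 13, which hold much of the Hist1 cluster, the source of histones for newly copied DNA. In chr13:22080001-23600000 all 14 tested histone genes fell at 60 h, by between -1.41 and -2.67 on the log2 scale, and in chr13:23640001-25000000 all 12 fell, by between -0.70 and -2.58. Over all tested genes 32.2% were lower at 60 h. Hist1h2ae measured 70.4, 68.9 and 68.4 CPM in growth medium and 11.6, 10.7 and 10.4 at 60 h (-2.67 ± 0.10, adjusted p = 1.1e-15 in edgeR). Hist1h1a, a linker histone, went from 179, 180 and 186 CPM to 32.3, 32.3 and 31.9 (-2.50 ± 0.05) and stood at -5.13 at 96 h. Neither gene's groups overlapped. Histone genes are near copies of one another, so that values of single genes are uncertain and their sum is more secure.

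Summed over the 28 tested histone genes in identical TADs, the level was 5690, 5320 and 5320 CPM in growth medium and 5750, 5290 and 4410 at 12 h, overlapping groups. It was 1470, 1410 and 1340 CPM at 24 h, 2030, 2100 and 2030 at 48 h, 1610, 1670 and 1670 at 60 h, and 795, 794 and 811 at 96 h. The sum at 48 h was thus above those at 24 and 60 h in every library. At 60 h 27 of the 28 fell, with a median of -2.11, while 32.2% of all tested genes were lower. The exception was H1f0 (0.04), a linker histone made outside replication as well, named here after its value was seen. The sum includes H1f0, with 136, 126 and 132 CPM in growth medium and 134, 137 and 133 at 60 h. Outside identical TADs 37 of 38 tested histone genes fell, with a median of -2.14.

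Peaks in the 2 histone TADs were similar in number in both conditions. The left one had 56 peaks in each list, 6 and 3 of them without a counterpart, over 97 placed genes of which 17 were tested, and the right one had 161 and 172. The boundary between them scored 2.39 in growth medium and 2.42 at 60 h, against a median of 1.04 and 1.15 for edges of identical TADs. In the right TAD Cmah, an enzyme of sialic acid synthesis, rose from 7.19, 7.64 and 7.84 CPM to 42.5, 37.9 and 42.0 (2.43 ± 0.07), and Gmnn, an inhibitor of replication licensing, fell by 1.23.

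Cell cycle genes fell in identical TADs as they did elsewhere. All 9 tested DNA replication genes inside were lower at 60 h (median -1.40), beside 22 of 24 elsewhere (-0.96), and all 5 mitosis genes inside (-1.80), beside 21 of 21 (-1.69). The background was 32.2% of all tested genes lower. Cdc20, an activator of the anaphase-promoting complex, went from 127, 123 and 125 CPM to 24.8, 27.6 and 25.4 (-2.27 ± 0.06). Cdt1, a licensing factor, went from 35.9, 36.5 and 30.9 CPM to 7.40, 9.25 and 9.56 (-1.97 ± 0.10). At 12 h the 5 mitosis genes were all called higher than in growth medium, Aurka by 0.51 and Bub1b by 0.44, beside a background of 17.8% called higher at that time. The TAD with Racgap1 and Troap, chr15:98640001-99960000, had 8 genes higher and 15 lower of 35 tested. Racgap1, needed for cytokinesis, measured 239, 250 and 246 CPM and then 77.7, 78.5 and 80.0 (-1.64 ± 0.05, adjusted p = 8.4e-18 in edgeR). Tpx2, a spindle protein, shares chr2:152560001-153720000 with Id1 and fell by 1.69 ± 0.04 on the log2 scale, while Pdrg1 and Mylk2 of the same TAD rose.

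**Figure D5:**
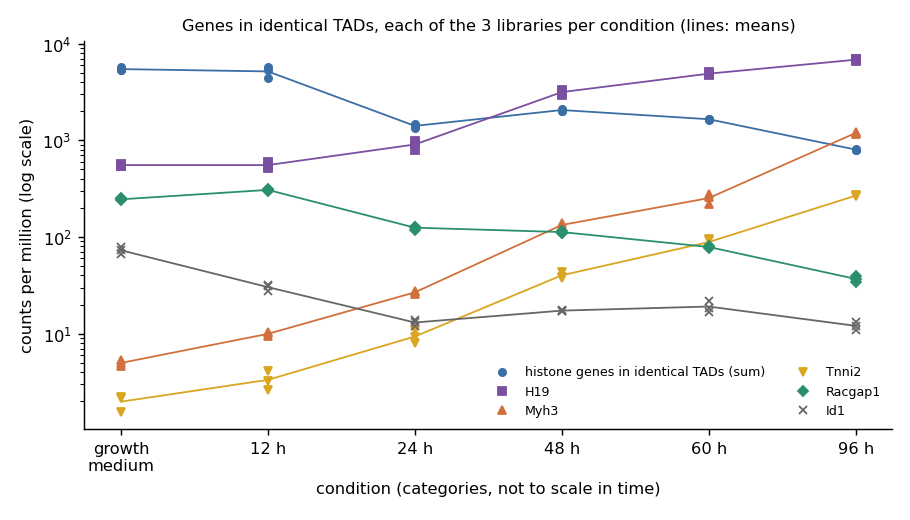
CPM in each library (log axis) against condition for the summed histone genes of identical TADs and for H19, Myh3, Tnni2, Racgap1 and Id1; points are libraries and lines join the means of 3. Histones drop between 12 and 24 h, Myh3 climbs from 4.63 to 5.38 CPM in growth medium to 1150 to 1230 at 96 h, and Racgap1 is above growth medium at 12 h before it falls.

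The clustered protocadherins, adhesion proteins that give cells surface identity, lay together in one identical TAD, chr18:36840001-37920000, with all 37 tested and placed members. At 60 h 26 of them rose and 1 fell (median 1.22), beside 33.1% of all tested genes higher and 32.2% lower. The one that fell was Pcdhac2 (-1.82, adjusted p = 0.0011 in edgeR), named after its value was seen. Pcdhb20 measured 2.56, 2.96 and 3.39 CPM in growth medium and 17.7, 17.7 and 20.4 at 60 h (2.64 ± 0.11), groups that did not overlap. Most members were scarce, such as Pcdhb12 with 0.408, 0.397 and 0.266 CPM and then 2.41, 1.87 and 2.04. Members of the alpha and gamma clusters share their last exons, so that their single values are uncertain. The TAD held 57 peaks in growth medium and 55 at 60 h.

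Cholesterol synthesis genes rose early and together: all 8 tested members in identical TADs were higher at 60 h (median 1.52) and at each other time, as were all 12 elsewhere at 60 h (1.50). Msmo1, a sterol demethylation enzyme, went from 34.2, 35.4 and 38.2 CPM to 173, 181 and 184 (2.32 ± 0.07), and Cyp51, a sterol demethylase, from 58.7, 59.2 and 58.4 to 260, 259 and 273 (2.17 ± 0.05). They lay in 8 different TADs. All 6 ribosome biogenesis genes inside fell (median -0.71), as did 14 of 14 elsewhere (-0.78), Dkc1, which modifies ribosomal RNA, by 1.28 ± 0.06. Of the cytosolic ribosomal protein genes 18 of 20 inside fell (-0.51), and 56 of 60 elsewhere, with 1 higher (-0.44). For all these lists the background at 60 h was 33.1% of tested genes higher and 32.2% lower.

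Extracellular matrix genes went both ways, 8 of 12 in identical TADs higher and 4 lower (median 0.51), beside 9 and 4 of 16 elsewhere (0.33). Dcn, a collagen-binding proteoglycan, rose from 10.8, 8.86 and 12.1 CPM to 116, 104 and 115 (3.4 ± 0.07). Fbln2, Lamc1, Fbn1 and Fn1 were lower, by -1.44, -0.86, -0.42 and -0.41, and the call of Fn1 (adjusted p = 0.031 in edgeR) was lost without growth medium replicate 1 or any one of the 60 h libraries (adjusted p = 0.0557 to 0.0745). All 5 tested collagen genes inside rose, and 17 of 25 elsewhere, with 4 lower, beside a background of 33.1% higher and 32.2% lower. The smooth muscle markers Tagln and Acta2 both rose (1.91 ± 0.06 and 1.58 ± 0.05), while Cnn1 went from a mean of 1.78 CPM to 0.594 and Myh11 stayed at or under 0.132. Whether cells with these markers had a part in the changes of the matrix genes was not tested. Of the CTCF and cohesin genes Ctcf (-0.31 ± 0.06) and Stag1 (-0.12 ± 0.05) lay inside and fell, and the call of Stag1 was lost without growth medium replicate 3 or 60 h replicate 2 or 3. Elsewhere 3 of 13 rose and 8 fell.

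Of the genes whose mean log2 CPM reached 3, the largest falls outside the histone TADs were those of Aldh1l2, a mitochondrial folate enzyme, from 322, 340 and 304 CPM to 53.6, 49.2 and 51.5 (-2.65 ± 0.05), Bcat1, which degrades branched-chain amino acids (-2.55 ± 0.05), and Recql4, a helicase of replication (-2.55 ± 0.08). With the same limit the 10 largest rises included Myl1, Klhl31 and the imprinted Mest, the last from 2.04, 2.23 and 2.43 CPM to 30.5, 26.2 and 29.6 (3.68 ± 0.09).

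In 4 identical TADs with at least 5 tested genes every tested gene was called one way (7 of the 600 other TADs). All 6 in chr15:32840001-34440000 rose, led by Cpq, a carboxypeptidase (2.06 ± 0.05), and Sdc2, a cell surface proteoglycan, from 171, 165 and 179 CPM to 702, 680 and 716 (2.02 ± 0.05). The smallest of them, Matn2 (0.10 ± 0.04), lost its call in most alternatives. That TAD went from 146 to 194 peaks, 69 of them of 60 h only. All 6 in chr17:43600001-44160000 rose, led by the calcineurin regulator Rcan2 (2.59 ± 0.08), with 71 and 88 peaks. All 5 in chr4:46440001-47280000 fell, led by Coro2a (-1.76 ± 0.34), with 134 and 126 peaks, and all 5 in chr4:130920001-131960000, where Srsf4, a splicing factor, went from 39.0, 36.7 and 35.4 CPM to 23.1, 24.8 and 23.8 (-0.63 ± 0.07), with 45 and 42 peaks. In these 4 TADs peaks were more numerous at 60 h where the genes rose and fewer where they fell, by small numbers in the latter. Over all identical TADs 57.8% had more peaks at 60 h and 38.1% fewer. The TAD chr4:46440001-47280000 was also named for its many growth medium only peaks. A link between peaks and the direction of genes was not tested.

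Across all identical TADs, peaks of 60 h only were compared with the direction of the genes. The 135 TADs with a gene at least 2-fold higher and none 2-fold lower had 27.5 peaks per Mb of 60 h only and 16.7 of growth medium only. The 104 with a gene at least 2-fold lower and none higher had 20.7 and 21.2, the 80 with both had 27.5 and 22.4, and the 251 with tested genes but none 2-fold had 20.2 and 16.3. As a share of the 60 h peaks, those of 60 h only made 26.1% in the TADs with a gene 2-fold higher, 20.3% in those with one 2-fold lower, 20.0% in those with both, 24.3% where none was 2-fold and 26.3% in the 68 TADs with no tested gene. By this pooled share the TADs with risen genes thus stood no higher than those without a tested gene, and the TADs with both were lowest. By the median share per TAD the TADs with risen genes stood highest, at 25.2%. The medians were 20.0% in those with a gene 2-fold lower, 19.9% with both, 23.1% with none 2-fold and 21.8% with no tested gene. In the other growth medium TADs the values per Mb were 23.2 and 15.0 where genes rose (303 TADs) and 19.6 and 18.9 where they fell (237). In identical TADs 30 of 255 genes at least 2-fold higher (11.8%) had a 60 h but no growth medium peak at their start. Of all 2830 tested genes with a known strand there, 55 did (1.94%). Such a 60 h peak can overlap a growth medium peak beside the start, as at Myh3 and Hrc. In the other TADs it was 37 of 525 (7.05%) and 85 of 6183 (1.37%). Most risen genes thus had a peak at the start in both lists or in neither. These are counts of 1 list per condition, without a test.

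Among identical TADs with at least 10 peaks, the most 60 h only peaks per Mb were in the TAD of Mb (59.4), that of Igf2 and H19 (57.5) and chr11:46000001-46480000 (56.2), where 4 of 6 tested genes rose and 1 fell. With the same limit the most growth medium only peaks per Mb were in chr5:142520001-143240000 (50.0), chr2:164840001-165800000 (43.8) and chr4:46440001-47280000 (42.9). The first of these holds the cytoplasmic actin gene Actb, which went from 3990, 3940 and 3980 CPM to 2510, 2650 and 2560 (-0.63 ± 0.04), and there 5 of 10 tested genes fell and 3 rose. The second had 5 lower and 2 higher of 12. The longest identical TAD, chr5:55120001-57560000 with 2440 kb, held 10 peaks in growth medium and 9 at 60 h and 1 tested gene, which was not called. The shortest, chr7:100680001-100720000, is a single bin with 6 and 4 peaks and the gene Fam168a, which fell by 0.37 on the log2 scale.

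Some gene families lay seldom in identical TADs. Of the placed zinc finger protein genes, many of which encode repressors and sit in clusters, 10.2% were inside, against 23.8% of all placed genes. The 36 tested ones inside split into 12 higher and 9 lower (median 0.02), while of the 307 elsewhere 165 were higher and 45 lower (0.30). The background over all tested genes was 33.1% higher and 32.2% lower. Of the olfactory receptor genes 10.4% were inside, 113 of 1085, none of them tested. None of 50 keratin and none of 28 prolactin family genes were inside, and 7 of 39 Hox genes, none of which was tested. By contrast 43.8% of the 64 tested and placed histone genes, all 37 tested and placed protocadherins and all 5 tested genes of the myosin cluster were inside. A whole cluster can fall inside or outside with a single TAD, so that members of a family do not count as separate cases.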

How the data were processed

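RNA counts per gene were deposited as whole numbers for 18 libraries. Per the submitters' processing notes, STAR, RSEM, DESeq2 and edgeR were among the tools used with build mm10, and per the labels' protocols the libraries kept the strand; no source used here says whether counting used it. The authors' ATAC peaks carry a fold enrichment (a ratio) and -log10 p and q values, with Bowtie2 2.2.6, SAMtools 1.9, MACS2 2.2.7 and deepTools 2.5.2 named in the submitters' processing notes. TAD positions, boundary scores and loop anchors were deposited by the authors as 1 list per condition or table, with HiC-Pro and edgeR named in those notes; no source used here names the callers or says whether libraries were pooled.

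Genes were placed through RefSeq GRCm38.p6, 33889 by symbol and 1006 by a unique synonym, and assigned to a TAD by their start where the strand was known, otherwise when wholly inside. Counts were fitted with edgeR 4.0.16 (R 4.3.3) over all 18 libraries and 6 groups, with TMM scaling, filterByExpr, the quasi-likelihood test, and Benjamini-Hochberg adjustment over all 15303 tested of 49089 genes. A gene is called at an adjusted p under 0.05. CPM are counts scaled to the TMM-adjusted library total. On simulated counts of 15040 genes for 60 h against growth medium, 86.6% of 67 genes changed 1.5-fold, 98.5% of 67 changed 2-fold and 100% of 66 changed 4-fold were recovered, with 11 unchanged genes called. The changed genes were drawn only from the better-counted ones, so that recovery of scarce genes such as Nctc1 is not covered. They were also few, whereas 65.3% of tested genes were called in the data. A peak is of one condition only when no peak of the other list overlaps it by a base. Replicates differed by more than sampling noise in all pairs (chi-square per degree of freedom 5.06 to 53.2). Alternatives included DESeq2 1.42.0; tables and figures used Python 3.11.15, pandas 2.3.3, numpy 2.4.6, scipy 1.17.1 and matplotlib 3.10.9.

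The TADs, gene lists, families and promoters were chosen with earlier results of these data known. Named genes are panel genes inside identical TADs, the 10 largest called rises and falls among genes whose mean log2 CPM reached 3, up to 4 called genes per list and those against its direction, and up to 6 called genes per named TAD. Named TADs hold a panel gene or stand at an extreme of changed genes, length, peaks of one condition or loops. Promoters were shown for named genes whose start lay in a 60 h peak that no growth medium peak overlapped, and for 4 histone genes of the largest falls. Gene numbers rest on the deposited symbols, and overlapping or antisense genes could share reads.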

Additional observations from a re-analysis of the deposited data

Results flagged for a closer look

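For 12 of the named genes the change from growth medium was called in opposite directions at 12 h and at 60 h, and the difference between the 2 times was itself called by edgeR's quasi-likelihood test. Log2 differences below are 60 h minus 12 h. Those higher at 12 h and lower at 60 h were Troap (-2.68), Cdc20 (-2.55), Aurka (-2.34), Bub1b (-2.24), Tpx2 (-2.02), Racgap1 (-1.96), Mcm10 (-1.73), Gapdh (-0.53) and Nans (-0.51). The cohesin gene Stag1 did the same (-0.34), though its call at 60 h was lost without each of 3 libraries. Matn2 (0.45) and Jph2 (1.61) were lower at 12 h and higher at 60 h, and the 60 h call of Matn2 was lost in 11 of 14 alternatives.

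Among all tested genes in identical TADs 227 of 3766 (6.03%) had such opposite calls, 152 of them higher at 12 h and 75 lower, against 919 of all 15303 tested (6.01%). The share inside was near that of all genes.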

How the results depend on the processing

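The definition of an identical TAD set the number most: 1638 TADs had both edges within 1 bin and 1741 overlapped reciprocally by at least 90%. With edges within 1 bin, 3254 genes inside were higher and 3297 lower at 60 h, but the share called was 68.7%. Scaling by RLE or the upper quartile, DESeq2, the 2 groups alone, protein-coding genes alone and genes wholly inside gave 1183 to 1273 higher and 1219 to 1321 lower genes, without changing either count by over 1.5 times. Without the low-count filter, more genes were tested and 45.0% were called. Leaving out 1 library of growth medium or 60 h gave 1141 to 1237 higher and 1225 to 1317 lower genes, 64.3% to 65.6% called. Replicate numbers did not pair the samples (correlations of 0, -0.06 and 0.08), and the fit with the replicate number as a block gave 1282 higher and 1283 lower genes. Alternatives chosen after seeing the data left out replicate 3 of 24 h (1251 higher, 1375 lower) or the histone and protocadherin genes (1261 and 1262).

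Peaks with a -log10 q of at least 5 numbered 63.7 per Mb in growth medium and 65.5 at 60 h, with 19.8% and 22.2% in one condition only; with edges within 1 bin densities were 83.8 and 87.7. When 50% of a peak had to be covered, 23.9% and 31.1% counted as of one condition only. The share of loops in both conditions was 15.3% with edges within 1 bin. Taking the nearest boundary within 1 bin chose almost the same boundaries (948 in growth medium both ways, 947 and 948 at 60 h). The unchanged boundary medians are therefore no check. Of 1768 values of the 127 named genes under 14 alternatives, 1739 kept their call and direction, 29 lost the call and none turned: Matn2 11 times, Fn1 5 (with DESeq2 adjusted p = 0.0767), Stag1 and 2500004C02Rik 3 each, Arhgef10l and Tmem200b 2 each, Sdha, Colq and Dnajc22 once each. Another scaling moved the median of all genes by under 0.1 (0.007 to -0.007 on the log2 scale). Depth limits genes near 0 CPM, such as Nctc1, Myh2 and Myh4, to values without a fold. The causes of the moves were not tested.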

Other observations

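Further identical TADs stood out by their loops, their length or a gene of the lists. After the TAD of Marcks the most loops lay in chr15:34480001-36160000, with 95 loops, 7 of both conditions, and 133 peaks in growth medium and 159 at 60 h. The next highest number, 72 loops, was shared by chr12:108800001-110480000 and another TAD. The former held 124 and 113 peaks, and 5 of its 86 placed genes were tested. The other 2 TADs of the 3 longest spanned 2160 kb each: chr1:75640001-77800000 held 41 and 34 peaks and a single tested gene, not called, whereas chr14:18240001-20400000 held 148 and 166 peaks and 16 tested genes. Among the latter the basement membrane gene Nid2 went from 49.2, 47.4 and 53.6 CPM to 213, 227 and 224 (log2 fold change 2.15 ± 0.07, SE), all libraries at 60 h above all in growth medium. The TAD that holds the start of Pax7, chr4:139760001-141040000, had 186 and 189 peaks, and 2 of its 6 tested genes were higher and 1 lower at 60 h. The lower gene, Rcc2, a regulator of chromosome segregation, fell from 289, 296 and 264 CPM to 113, 121 and 115 (log2 fold change -1.28 ± 0.05, SE).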
